A study of Mus musculus with 22 samples.

Results

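Somatostatin, neuropeptide Y, vasoactive intestinal peptide, cholecystokinin, proenkephalin, prodynorphin, the tachykinin precursors 1 and 2, corticotropin-releasing hormone and cortistatin are encoded by 10 genes (Sst, Npy, Vip, Cck, Penk, Pdyn, Tac1, Tac2, Crh and Cort). These were described here across 6 brain cell types profiled with RiboTag, an approach in which Cre recombinase switches on a tagged ribosomal protein so that ribosome-bound mRNA can be pulled from chosen cells. The genes were taken by symbol from the 55385 genes quantified, and the values of all transcripts of a gene were summed. Their levels are given as TPM, a unit of relative transcript abundance scaled for transcript length and library size. In these bulk samples, fewer cells of a type and less RNA per cell cannot be told apart.

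Neuropeptides are made as long precursors that pass through the secretory pathway, are cut by proprotein convertases, trimmed and often amidated, and are then packed into dense-core vesicles. They act on G protein-coupled receptors, often at a distance from the release site. In cortex and hippocampus most of them are textbook markers of GABAergic interneuron classes. Somatostatin, neuropeptide Y and cortistatin mark dendrite-targeting interneurons, and vasoactive intestinal peptide and Tac2 mark interneurons that contact other interneurons. Cholecystokinin is made by one class of interneuron and by many pyramidal cells, and prodynorphin is known from the mossy fibres of dentate granule cells.

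All mice were 6 weeks old, carried 1 floxed Rpl22 allele (Rpl22 Fl/+) and differed in their Cre line and in the tissue taken. Dentate gyrus granule cells (hippocampus) and layer V pyramidal neurons (cortex) both came from Rbp4-Cre mice, so that these groups differ in the tissue dissected and not in the driver. Cerebellar granule cells came from Gabra6-Cre cerebellum, inhibitory interneurons from Dlx6a-Cre hippocampus, astrocytes from Aldh1-cre cortex and microglia from Tmem119-cre cortex. The methods give the astrocyte line as Aldh1l1-cre/ERT2, and the astrocyte and microglia drivers were induced with tamoxifen. Each interneuron library pooled 2 mice. Each cell type had 3 biological replicates, and 1 library of each of the 18 replicates was compared. Every interneuron and microglia library came from batch 2 and the other 12 from batch 1. In addition, 4 replicates, 1 in each other cell type, had a batch 2 library that served as a check.

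Total estimated counts ran from 38270477 to 97992957 over all 22 libraries. Every library of the labelled cell type lay above all other libraries for 11 of 11 GABAergic markers in interneurons, 6 of 6 cerebellar granule markers, 6 of 6 astrocyte markers and 7 of 7 microglia markers. The dentate granule markers were highest in dentate granule cells for 5 of 6 genes and the layer V markers in layer V neurons for 3 of 7. Of 10 interneuron class markers, 5 were highest in interneurons and 3 in cerebellar granule cells. Their mean summed TPM was also higher in cerebellar granule cells (2723) than in interneurons (1782). Summed TPM of 6 oligodendrocyte markers was highest in interneurons (2855 to 3059 per library, against 122 to 1212 elsewhere), and its part in the results was not tested. A batch 2 library of layer V neuron replicate 1, which is used here only in alternatives, is labelled male but held the Xist level of its batch 1 counterpart, which is labelled female.

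Promoter sequences, from 250 bases before to 50 bases after the transcript start, were taken from RefSeq (GRCm38.p6) and matched 8 of the 10 genes. Penk and Crh were not matched. These windows were searched on both strands for the cyclic AMP response element TGACGTCA, for TGACG, which is contained in it, and for TATAAA, because the response element is best known from the somatostatin gene. The full element was found in 1 of 8 genes, Sst, against 2.03% of 27025 genes with a promoter in the table. TGACG was found in 5 of 8 (Sst, Vip, Cck, Tac1 and Cort), against 23.0% of all genes, and TATAAA in 1 of 8 (Vip), against 15.7%. These matches are a description of the letters in the windows. The Sst window spans chr16:23890875-23890902 on the minus strand and begins its match 48 bases upstream of the start that the table uses, inside an exon of a longer predicted Sst transcript. The Vip window spans chr10:5639129-5639153 on the plus strand, the Cck window chr9:121495727-121495751 on the minus strand, the Tac1 windows chr6:7554854-7554878 and chr6:7555008-7555032 on the plus strand, and the Cort window chr4:149126767-149126791 on the minus strand. The Cck window lies inside the opposite-strand gene Gm38661 but in none of its exons, and the Vip, Tac1 and Cort windows overlap no annotated gene. The sequences are shown 5′ to 3′ on the strand of the gene, with the match in capitals, to let the full element of Sst be compared with the shorter matches of the other genes.
Sst: cctccttggcTGACGTCAgagagagagt
Vip: atcactactgTGACGtctttcgggg
Cck: tgctggactgCGTCAgcactgggta
Tac1, nearer the start: tctacaggctCGTCAcgcctgagat
Tac1, farther from the start: cctaaaattgCGTCAtttcgaacac
Cort: ccggcttgtgCGTCAccgcgtgagt
In Cck, Tac1 and Cort the capitals show TGACG as it reads on the opposite strand.

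Interneurons carried the most neuropeptide precursor mRNA and cerebellar granule cells almost none. The 10 genes summed to 9421 ± 890 TPM in interneurons (SD, n = 3), 2932 ± 172 in layer V neurons, 1124 ± 256 in dentate granule cells, 654 ± 81.0 in astrocytes, 274 ± 5.37 in microglia and 4.545 ± 0.5999 in cerebellar granule cells. No library of one of these cell types overlapped a library of the next. What the sum consisted of also differed. In interneurons Sst made up 56.3% ± 0.523 of it, Npy 19.3% ± 0.605, Cck 13.3% ± 0.822 and Vip 3.68% ± 0.196. In layer V neurons Cck alone made up 84.9% ± 0.223, followed by Sst with 8.70% ± 0.251. In dentate granule cells Cck made up 74.8% ± 1.49, and Penk (8.23% ± 2.08), Sst (7.75% ± 2.31) and Pdyn (7.38% ± 1.75) followed with similar shares. Cck also led in astrocytes and microglia, with 36.2% ± 0.890 and 36.3% ± 4.65, whereas Penk held 16.3% ± 1.22 in astrocytes and 26.3% ± 5.21 in microglia, with ranges that did not overlap.

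**Figure D1:**
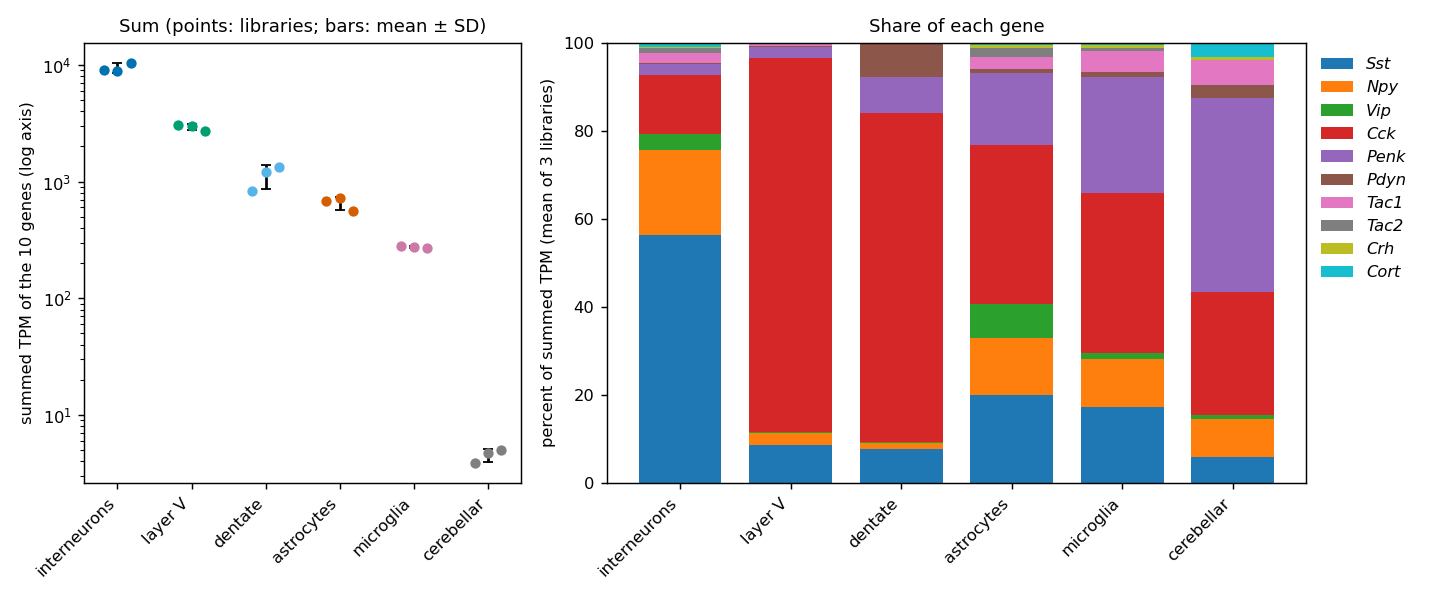
The left panel plots the summed TPM of the 10 precursor genes on a log axis for each of 18 libraries, with the mean and SD of 3 libraries per cell type. The right panel plots the mean percent of that sum held by each gene, and shows Sst leading in interneurons (56.3%) and Cck leading in layer V neurons (84.9%) and dentate granule cells (74.8%).

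Of the 10 genes, 8 had their highest mean in interneurons, and Cck and Pdyn had theirs in layer V neurons and dentate granule cells. All 10 had their lowest mean in cerebellar granule cells, where the libraries held between 78 and 95 estimated counts for all of them together. The second place belonged to astrocytes for 6 genes, to layer V neurons for Sst and Cort and to interneurons for Cck and Pdyn. The plot of TPM by library shows this order for each gene.

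**Figure D2:**
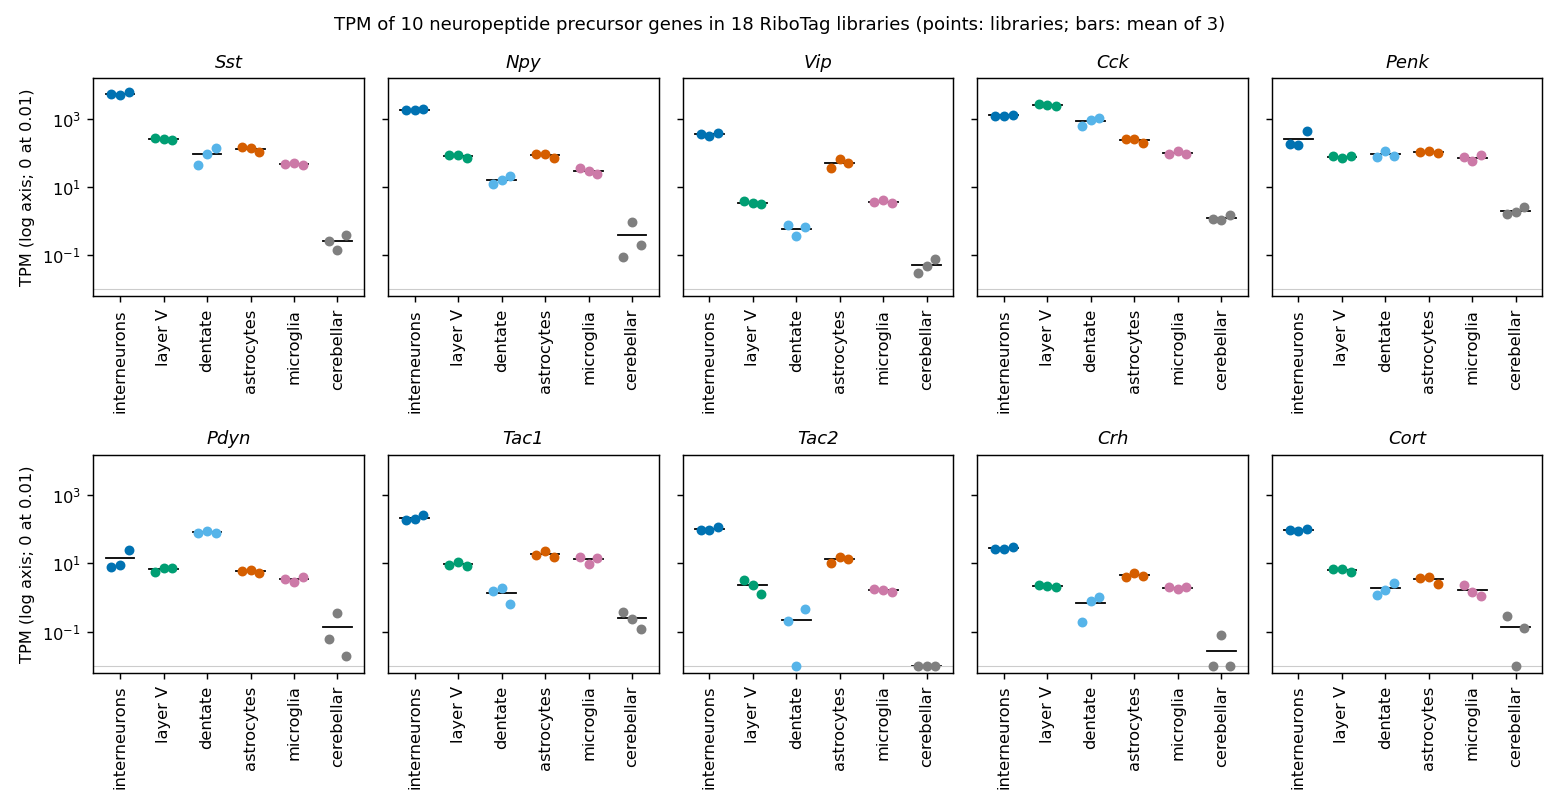
Each panel plots TPM on a log axis for 1 gene in 18 libraries, grouped by cell type, with values of 0 drawn at 0.01 and a bar at the mean of 3 libraries. Cerebellar granule cells are lowest in every panel, Cck is highest in layer V neurons, Pdyn is highest in dentate granule cells, and interneuron replicate 3 stands above the other interneuron libraries for Penk and Pdyn.

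Somatostatin, an inhibitory peptide, was the most abundant of the precursors in interneurons. Sst (ENSMUSG00000004366.4, chromosome 16 from 23889573 to 23891342) was at 5142, 4912 and 5849 TPM in the interneuron libraries. Layer V neurons held 275, 260.1 and 232 TPM and astrocytes 151, 139 and 103. The interneuron level lay far above both, with a log2 fold change of 4.07 over layer V neurons (standard error 0.24, adjusted p = 8e-11, edgeR), and the difference between layer V neurons and astrocytes was small but passed the test (0.84, standard error 0.21, adjusted p = 0.0017). Dentate granule cells ranged widely, with 45.3, 94.0 and 134 TPM, and overlapped the astrocyte range at the top and the microglia range (43.1, 47.1 and 51.8 TPM) at the bottom. The astrocyte level exceeded the dentate level by 0.89 (adjusted p = 0.0014), and by 0.32 within batch 2, which holds 1 library of each. The dentate level exceeded the microglia level by 0.64 (adjusted p = 0.014), a call that was lost without dentate replicate 3 (0.26, adjusted p = 0.19). Among the 11 listed GABAergic markers, Gad2 (3.74, 4.46 and 5.99 TPM) and Slc32a1 (2.19, 3.74 and 4.78 TPM) ran in the same order over the dentate libraries. The order of the other listed markers over the dentate libraries is not given here. The 11 markers together summed to between 186 and 203 TPM per dentate library. Most of this sum was Gad1, whose dentate mean is given further below, so its range says little about the other markers. The part of RNA from GABAergic cells in the Sst values was not tested.

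Cortistatin is a relative of somatostatin that binds the same receptors. Cort (ENSMUSG00000028971.4, chromosome 4 from 149125034 to 149126763) was at 93.2, 88.0 and 100.2 TPM in interneurons and at 6.99, 6.79 and 5.63 in layer V neurons, a log2 fold change of 3.57 (standard error 0.24, adjusted p = 5e-10). Its order of cell types was that of Sst. Astrocytes held 3.42 ± 0.764 TPM (SD, n = 3), less than layer V neurons by 0.80 on the log2 scale (adjusted p = 0.0067). Dentate granule cells (1.88 ± 0.763) and microglia (1.61 ± 0.625) did not differ beyond their spread (adjusted p = 0.91).

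Neuropeptide Y is an inhibitory peptide made by many hippocampal interneurons. Npy (ENSMUSG00000029819.6, chromosome 6 from 49822710 to 49829507) was at 1738, 1754 and 1959 TPM in the interneuron libraries. Astrocytes (90.9, 91.8 and 70.5 TPM) and layer V neurons (85.8, 83.8 and 69.8) followed together, with overlapping ranges and no difference beyond their spread (0.21, adjusted p = 0.19). Interneurons exceeded astrocytes by 3.98 (standard error 0.16, adjusted p = 1.1e-13). Microglia held 29.7 ± 5.32 TPM (SD, n = 3) and dentate granule cells 16.4 ± 4.62, so that Npy, unlike Sst, was lower in dentate granule cells than in microglia (log2 fold change of microglia over dentate 1.17, adjusted p = 1.4e-05).

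Vasoactive intestinal peptide had a sharper pattern. Vip (ENSMUSG00000019772.5, chromosome 10 from 5639193 to 5647617) was at 349, 305 and 388 TPM in interneurons and at 34.7, 65.9 and 50.8 TPM in astrocytes. These were the only libraries above 4.23 TPM. Interneurons exceeded astrocytes by 2.37 (standard error 0.18, adjusted p = 1.3e-09), and astrocytes exceeded microglia by 3.82 (standard error 0.21, adjusted p = 1.4e-11). Microglia (3.69 ± 0.482; SD, n = 3) and layer V neurons (3.5 ± 0.308) did not differ beyond their spread (adjusted p = 0.74). In dentate granule cells Vip was nearly lacking, with 0.77, 0.37 and 0.67 TPM.

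Cholecystokinin was most abundant in layer V neurons, which are glutamatergic. Cck (ENSMUSG00000032532.7, chromosome 9 from 121489824 to 121495694) was at 2596, 2544 and 2329 TPM in layer V neurons, at 1221, 1227 and 1291 in interneurons and at 623, 884 and 1020 in dentate granule cells. No range overlapped the next. Layer V neurons exceeded interneurons by 1.27 (standard error 0.12, adjusted p = 4.1e-08), and interneurons exceeded dentate granule cells by 0.53 (standard error 0.12, adjusted p = 0.0006). Within batch 2, which holds 1 dentate library, the second of these differences was 0.26 and missed the threshold (adjusted p = 0.064). Astrocytes (237 ± 33.1 TPM; SD, n = 3), microglia (99.4 ± 13.3) and cerebellar granule cells (1.26 ± 0.244) followed, each step passing the test. An opposite-strand gene, Gm38661, overlaps exons of Cck, and how strand was treated in the counting is not given in the sources used here.

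Proenkephalin, the source of the enkephalins that act on delta and mu opioid receptors, was at similar levels in astrocytes, dentate granule cells, layer V neurons and microglia. Penk (ENSMUSG00000045573.9, chromosome 4 from 4133536 to 4138815) was at 184, 168 and 429 TPM in interneurons. Astrocytes held 107, 111 and 99.8 TPM, dentate granule cells 77.6, 115 and 77.9, layer V neurons 79.1, 72.1 and 79.4, and microglia 74.6, 57.6 and 83.8. The last 3 of these cell types could not be ordered, because dentate granule cells did not differ from layer V neurons (-0.07 on the log2 scale of counts, adjusted p = 0.83), nor layer V neurons from microglia (0.03, adjusted p = 0.90). Interneurons exceeded astrocytes by 0.95 (standard error 0.24, adjusted p = 0.0021). This fell to 0.47 (adjusted p = 0.0083) without interneuron replicate 3, and within batch 2, which holds 1 astrocyte library, the difference was 1.01. The difference between astrocytes and dentate granule cells was 0.61 (adjusted p = 0.034) and missed the threshold without any 1 of the 3 astrocyte libraries, dentate replicate 1 or 3, or microglia replicate 3, with adjusted p from 0.051 to 0.16. With limma on log2(TPM + 1) it was 0.25 (adjusted p = 0.40) and on log2(TPM + 0.1) 0.26 (adjusted p = 0.41). Within batch 2, which holds 1 library of each of these cell types, it was 0.76. Penk was the most abundant of the 10 in cerebellar granule cells, with 1.64, 1.86 and 2.55 TPM.

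Prodynorphin, the source of the kappa opioid receptor ligands, was highest in dentate granule cells. Pdyn (ENSMUSG00000027400.11, chromosome 2 from 129686549 to 129699938) was at 76.9, 87.4 and 75.8 TPM in dentate granule cells and at 7.76, 8.63 and 25.2 TPM in interneurons, where replicate 3 stood apart. The difference was 2.61 in favour of dentate granule cells (standard error 0.29, adjusted p = 4.1e-07), and dentate granule cells lay above every other library. Layer V neurons held 6.63 ± 1.02 TPM (SD, n = 3), astrocytes 5.82 ± 0.441 and microglia 3.42 ± 0.620. Interneurons exceeded layer V neurons by 0.78 (standard error 0.30, adjusted p = 0.03), a difference that fell to 0.06 (adjusted p = 0.75) without interneuron replicate 3. It also missed the threshold without layer V replicate 1 (0.67, adjusted p = 0.10) or replicate 3 (0.82, adjusted p = 0.054). Layer V neurons and astrocytes did not differ beyond their spread (adjusted p = 0.81).

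The tachykinin precursors encode substance P and neurokinin A (Tac1) and neurokinin B (Tac2). Tac1 (ENSMUSG00000061762.12, chromosome 6 from 7555061 to 7562978) was at 187, 202 and 253 TPM in interneurons, against 17.5, 22.25 and 14.85 in astrocytes (log2 fold change 3.18, standard error 0.17, adjusted p = 8.1e-12). Microglia (13.0 ± 3.01 TPM; SD, n = 3) and layer V neurons (9.60 ± 1.45) came next, with overlapping ranges, and dentate granule cells held 1.35 ± 0.626. The step from microglia to layer V neurons was 0.46 (adjusted p = 0.024) and missed the threshold without layer V replicate 1 or 3 or microglia replicate 1 or 3 (adjusted p from 0.055 to 0.16). Tac2 (ENSMUSG00000025400.11, chromosome 10 from 127724478 to 127731768) followed Vip rather than Tac1. It was at 92.5, 94.25 and 113 TPM in interneurons, at 10.4, 15.7 and 13.3 in astrocytes and at 3.23 or less in every other library. Interneurons exceeded astrocytes by 2.48 (standard error 0.24, adjusted p = 1.2e-07), and astrocytes exceeded layer V neurons by 2.66 (standard error 0.28, adjusted p = 2.6e-07). No Tac2 read was counted in any cerebellar granule cell library, which allows up to 3 counts per library (counting error only). With these 3 libraries set to 3 counts each, interneurons were at least 412-fold higher.

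Corticotropin-releasing hormone, a stress peptide, was, next to Pdyn, the least abundant precursor in interneurons. Crh (ENSMUSG00000049796.4, chromosome 3 from 19693401 to 19695396) was at 27.1, 26.02 and 30.8 TPM there and at 3.99, 5.21 and 4.16 in astrocytes (log2 fold change 2.27, standard error 0.25, adjusted p = 2.2e-07). Astrocytes exceeded layer V neurons (2.195 ± 0.146 TPM; SD, n = 3) by 1.11 (adjusted p = 0.00095). Layer V neurons did not differ beyond their spread from microglia, at 1.93 ± 0.157 TPM (adjusted p = 0.63). In the cerebellar libraries Crh was at 0, 2 and 0 counts. The opposite-strand gene Gm42189 overlaps exons of Crh.

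Over the 10 genes and the 5 steps in each order, 42 of 50 neighbouring pairs of cell types differed at an adjusted p of 0.05, of which 7 had overlapping TPM ranges. The share is read against a high background, because these cell types differ in most of their genes. Over all 20524 genes tested, 60.7% differed between layer V neurons and interneurons, 63.4% between dentate granule cells and layer V neurons and 63.9% between dentate granule cells and interneurons. Between interneurons and astrocytes 73.2% differed, between dentate granule cells and cerebellar granule cells 73.9%, between dentate granule cells and astrocytes 74.2%, between astrocytes and microglia 76.1% and between layer V neurons and astrocytes 77.2%. The shares were 79.8% between dentate granule cells and microglia, 83.2% between layer V neurons and microglia and 85.5% between cerebellar granule cells and microglia. The 8 pairs that did not pass were astrocytes and layer V neurons for Npy, microglia and layer V neurons for Vip, Tac2 and Crh, dentate granule cells and layer V neurons as well as layer V neurons and microglia for Penk, layer V neurons and astrocytes for Pdyn, and dentate granule cells and microglia for Cort. For Tac2 the pair passed without layer V replicate 3 (0.74, adjusted p = 0.039).

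To set interneurons against everything else, they were compared with the mean of the other 5 cell types on the log2 scale. All 10 genes were higher in interneurons (adjusted p = 1.7e-05 or less, edgeR), where 35.1% of all genes tested were, and 7 of 10 were at least 8-fold higher, where 2.72% of all genes were. The median log2 fold change was 5.65, against -0.02 over all genes. Setting Tac2 to the bound that its zero counts allow left this median unchanged. The median could not move, because Tac2 lay above it both as fitted (7.05) and at the bound (6.13). The largest log2 fold change was that of Vip (7.16, standard error 0.14). The 3 genes below 8-fold were Cck (2.87, standard error 0.09), Penk (2.48, standard error 0.17) and Pdyn (1.71, standard error 0.27). Without interneuron replicate 3 the Pdyn difference was 0.99 (adjusted p = 4.2e-06). All interneuron libraries lie in batch 2. Within batch 2 alone the differences ran from 1.59 for Pdyn to 7.11 for Vip. There, each cell type other than interneurons and microglia has 1 library, a repeat of a replicate used above.

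That contrast gives the near-empty cerebellar granule cells as much weight as each other cell type. With them left out, 9 of 10 genes were higher in interneurons, where 33.9% of all genes were, and the median fell to 4.69. The exception was Pdyn (0.17, standard error 0.23, adjusted p = 0.52), which turned to -0.54 (adjusted p = 0.00052) when interneuron replicate 3 was also left out. Vip (5.95), Tac2 (5.45), Sst (5.30) and Npy (5.11) kept the largest differences. The plot of fitted fold changes shows both versions.

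**Figure D3:**
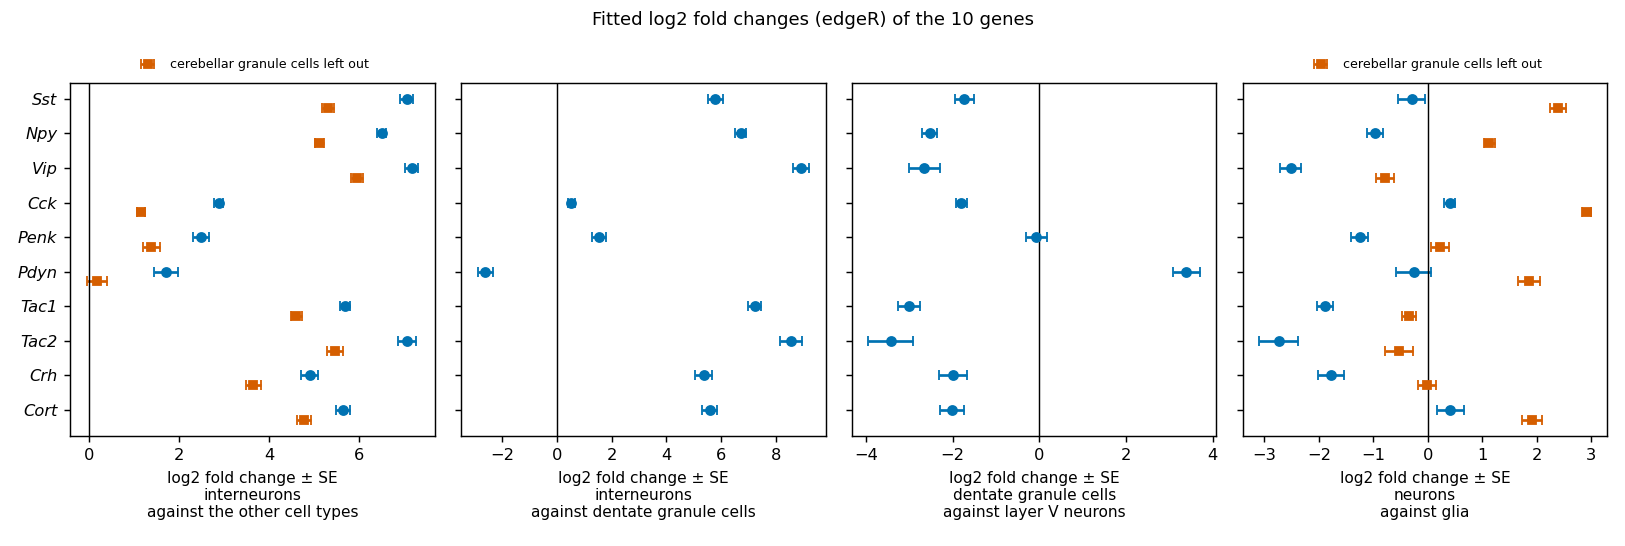
Each panel plots the edgeR log2 fold change of the 10 genes for 1 contrast, with a standard error derived from the F statistic. Squares in the outer panels give the same contrast without cerebellar granule cells. In the first panel all circles lie right of 0 and the Pdyn square lies near 0 (0.17), and in the last panel the Sst, Npy, Cck, Pdyn and Cort squares lie between 1.13 and 2.91.

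Interneurons and dentate granule cells came from the same tissue and were compared directly. Of the 10 genes, 9 were higher in interneurons and 1, Pdyn, was lower (31.2% and 32.6% of all genes), and 7 were at least 8-fold higher (3.87% of all genes). Vip (8.93, standard error 0.29), Tac2 (8.57, standard error 0.40) and Tac1 (7.24, standard error 0.24) differed most, and then Npy (6.72), Sst (5.80), Cort (5.59) and Crh (5.37). Penk (1.55, standard error 0.25) and Cck (0.53) differed least. Without interneuron replicate 3 the Penk difference was 1.03 (adjusted p = 1.1e-05) and the Pdyn difference -3.33 (adjusted p = 3.7e-12). The interneuron libraries lie in batch 2 and the dentate libraries in batch 1, and within batch 2 the call was lost for Cck, as given above. Of the oligodendrocyte markers 6 of 6 were higher in interneurons, and their part was not tested, while 1 of 6 astrocyte markers and 1 of 7 microglia markers were higher.

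Dentate granule cells and layer V neurons share the Rbp4-Cre driver and batch 1. Here 1 gene was higher in dentate granule cells, Pdyn (3.39, standard error 0.31, adjusted p = 2.7e-08), and 8 were lower, where 33.1% and 30.3% of all genes were. Tac2 (-3.43, standard error 0.51), Tac1 (-3.01), Vip (-2.65) and Npy (-2.53) were lower by the most, followed by Cort (-2.02), Crh (-1.99), Cck (-1.80) and Sst (-1.73). Penk did not pass the test (-0.07, standard error 0.25, adjusted p = 0.83). The median over the 10 genes was -2.01, against 0.05 over all genes. GABAergic markers moved too, with 7 of 11 lower and 2 higher in dentate granule cells, Gad1 being one of those at a higher level (149.5 ± 9.02 against 14.9 ± 1.33 TPM; SD, n = 3), and their part was not tested.

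The neuronal types as a group were not richer in these mRNAs than glia on the log2 scale. Against the mean of astrocytes and microglia, the mean of the 4 neuronal types was higher for 1 gene, Cck (0.40, standard error 0.10, adjusted p = 0.0016), and lower for 6 (36.4% and 46.8% of all genes). The lower genes were Tac2 (-2.74), Vip (-2.52), Tac1 (-1.89), Crh (-1.78), Penk (-1.25) and Npy (-0.97). This rests on the cerebellar granule cells. Without them 5 genes were higher, where 39.2% of all genes were, and 2 were lower, where 44.1% were. Cck (2.91), Sst (2.39), Cort (1.91), Pdyn (1.86) and Npy (1.13) were then higher, and Vip (-0.79, standard error 0.17, adjusted p = 0.00032) and Tac1 (-0.35, standard error 0.13, adjusted p = 0.019) were lower.

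Astrocytes and layer V neurons, both from cortex, were compared directly. Of the 10 genes, 7 differed between them, a share no higher than the 77.2% of all genes that did. Vip (3.91, standard error 0.22, adjusted p = 1.1e-11), Tac2 (2.66), Crh (1.11) and Tac1 (1.05, adjusted p = 2.9e-05) were higher in astrocytes on the log2 scale, whereas Cck (3.28), Sst (0.84) and Cort (0.80) were higher in layer V neurons. Npy, Penk and Pdyn did not pass the test. Both groups lay in batch 1.

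The levels outside interneurons can be set beside those of genes that define GABAergic cells. In astrocytes Gad1, Gad2 and Slc32a1, which encode the GABA-synthesising enzymes and the vesicular GABA transporter, reached 2.34%, 2.41% and 3.14% of their interneuron means. Sst (2.47%), Cort (3.65%) and Npy (4.65%) were close to these shares, and Tac1 (8.51%), Tac2 (13.2%), Vip (14.5%), Crh (15.9%), Cck (19.1%), Penk (40.7%) and Pdyn (42.0%) lay above them. Among the other GABAergic markers, Dlx1 (13.6%), which encodes a transcription factor, also lay above. In layer V neurons Gad1, Gad2 and Slc32a1 stood at 0.733%, 1.17% and 1.10%, and Vip was at 1.009% while Tac2 (2.27%), Npy (4.39%), Tac1 (4.49%), Sst (4.82%), Cort (6.89%) and Crh (7.85%) were higher. In microglia they stood at 0.808%, 0.708% and 1.03%, and Sst (0.893%), Vip (1.06%), Tac2 (1.62%), Npy (1.63%) and Cort (1.71%) were nearest to them. These shares are means of 3 hippocampal interneuron libraries against cortical libraries, and the part of RNA from GABAergic cells in them was not tested. The 5 excitatory neuron markers summed to 2905 TPM in layer V neurons, 503 in astrocytes and 268 in microglia. Cck was at 2490, 237 and 99.4 TPM in the same order, and the part of RNA from excitatory neurons in the glial values was not tested.

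**Figure D4:**
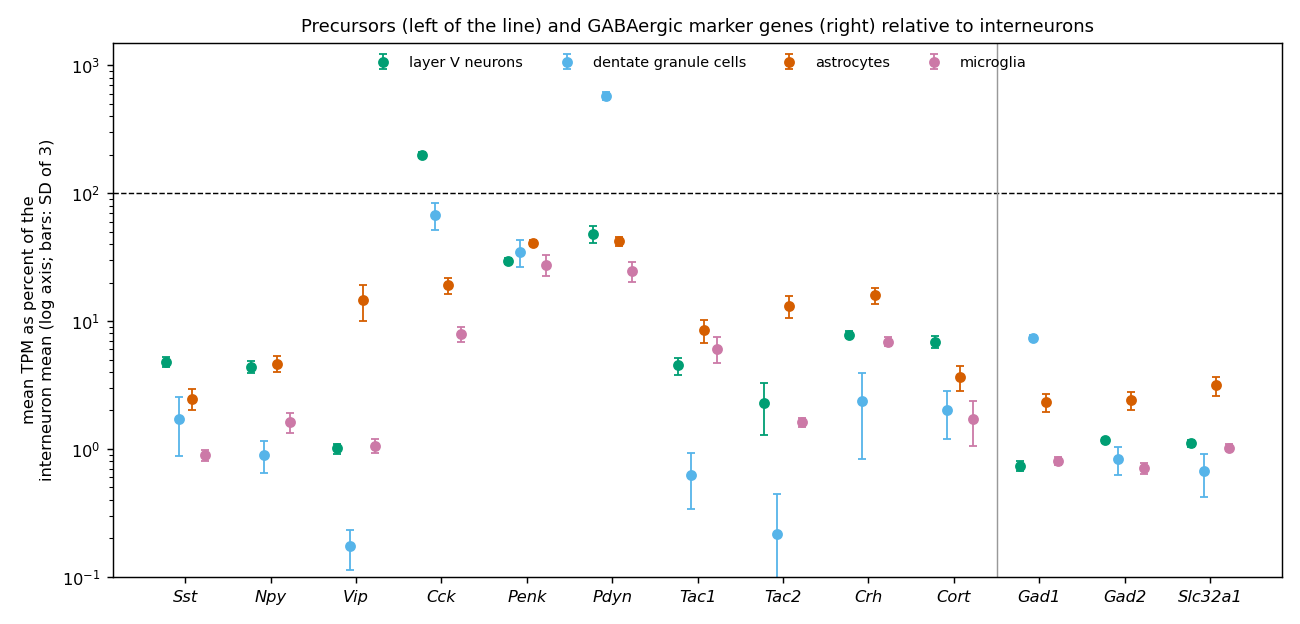
Mean TPM in 4 cell types is plotted on a log axis as percent of the interneuron mean, with the SD of 3 libraries, for the 10 precursors and, right of the line, for Gad1, Gad2 and Slc32a1. Cck in layer V neurons and Pdyn in dentate granule cells lie above 100%, and Vip, Tac2 and Crh in astrocytes (13.2% to 15.9%) lie above the GABAergic genes in astrocytes (2.34% to 3.14%).

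One interneuron library differed from the others, most of all in the opioid precursors. In replicate 3, which pooled male mice while replicates 1 and 2 pooled a male and a female, Penk was 2.43 times and Pdyn 3.08 times the mean of the other interneuron libraries. The other 8 precursors were between 1.05 and 1.30 times that mean, with Tac1 at 1.30. All 10 were highest in this library. All 7 of 7 striatal projection neuron markers were highest in the same library, with Adora2a at 21.3 TPM against 3.08 and 2.03, Ppp1r1b at 151 against 35.9 and 29.2, Rgs9 at 27.0 against 8.47 and 8.0, and Drd1 at 16.0 against 5.47 and 5.52. Drd2 (14.97 against 12.1 and 11.1 TPM) moved least. The summed striatal list ran from 89.4 to 300.5 TPM over the interneuron libraries and from 44.96 to 255 over the others. GABAergic markers had a median of 0.995 times and oligodendrocyte markers a median of 0.965 times the mean of the other libraries. Penk and Pdyn are also known from striatal projection neurons. The part of such cells in the values of these or the other precursors was not tested.

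**Figure D5:**
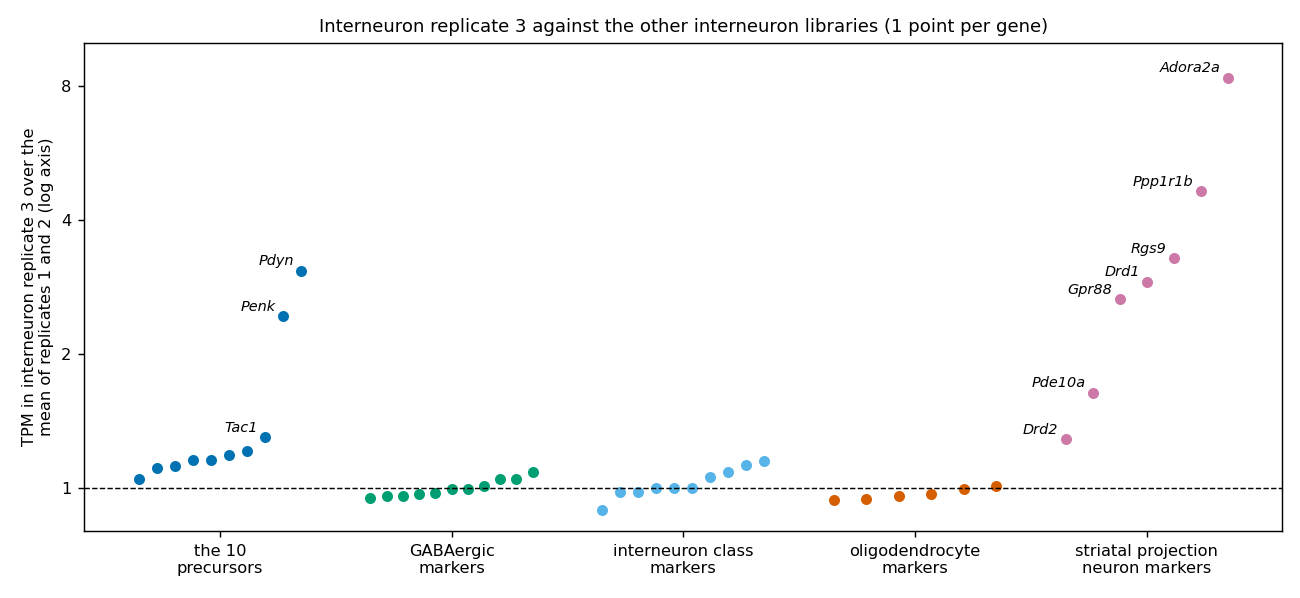
Each point gives, on a log axis, the TPM of 1 gene in interneuron replicate 3 over the mean of replicates 1 and 2, grouped by gene list. Penk (2.43) and Pdyn (3.08) stand above the other precursors, and striatal markers reach from 1.29 to 8.35, whereas GABAergic and oligodendrocyte markers lie near 1, with medians of 0.995 and 0.965.

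Sst, Npy, Crh and Cort were quantified from 1 transcript each, so their transcript share is fixed. Of the other genes, Cck, Vip, Tac2 and Pdyn had a mean of over 93% of their TPM on 1 transcript in interneurons. Cck-201 held 96.3% ± 0.360 of Cck TPM in interneurons and 96.5% ± 0.239 in layer V neurons but 88.4% ± 1.34 in dentate granule cells (SD, n = 3), where Cck-203 (6.64% ± 0.983) and Cck-202 (4.54% ± 0.427) took up more. Penk was split between Penk-201 and Penk-202 in all cell types, and Penk-202 held 38.4% ± 1.08 in interneurons, 39.6% ± 2.03 in layer V neurons and 44.99% ± 1.19 in dentate granule cells. Tac1 in interneurons was split between Tac1-203 (52.9% ± 0.966) and Tac1-205 (45.6% ± 1.46). These are estimates of pseudoalignment for transcripts that share most of their sequence, and no test was made.

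Among all genes tested, those with the pattern most like each precursor were found by Pearson's r of log2(TPM + 1) over the 18 libraries, as a description. Vip and Tac2 were each other's closest match (r = 0.9931). Cort was closest to Cbln4 (0.9957) and Elfn1 (0.9932), and Crh to C1ql1 (0.9907) and Slc32a1 (0.9838). Cck matched Cacng3 (0.9962), which encodes an AMPA receptor auxiliary subunit, and Mpped1 (0.9934), and Pdyn matched Scn3a (0.9748), a sodium channel gene, and Il1rap (0.9712). Sst was closest to Mrgpre (0.9915), Tac1 to Pcp4l1 (0.9858), Npy to Atat1 (0.9825) and Penk to Gyg (0.9738). These correlations rest on 6 cell types in groups of 3 libraries, and replicates of a cell type are not independent points of a pattern.

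The receptors for these peptides were spread over the neuronal types. Of 21 receptor genes 20 were tested, and 16 were higher and 3 lower in interneurons than in the mean of the other 5 cell types, beside 35.1% and 32.2% of all genes. Their median was 2.44, against -0.02 over all genes. With cerebellar granule cells left out 13 were higher, beside 33.9% of all genes, and 3 were lower, and the median was 1.04. By mean TPM, 8 of 21 were highest in dentate granule cells, 7 in interneurons, 3 in layer V neurons, 2 in cerebellar granule cells and 1 in microglia. Dentate granule cells led for Npy1r (52.5 ± 2.48), Npy2r (55.8 ± 3.26) and Sstr1 (27.5 ± 0.794), layer V neurons for Sstr2 (34.2 ± 2.42) and Cckbr (39.55 ± 2.35), interneurons for the delta opioid receptor gene Oprd1 (36.7 ± 1.45), cerebellar granule cells for Crhr1 (67.25 ± 6.35) and microglia for Vipr1 (18.1 ± 1.4), all in TPM (SD, n = 3). These receptors were chosen after their values were seen. By the size of the fitted difference of interneurons from the other cell types, Npy4r, Sstr5 and Oprd1 led. Npy4r and Sstr5 had means below 1 TPM in every cell type and were at 0 in cerebellar granule cells, so no fold is given, and Oprd1 differed by 4.45 (standard error 0.06). Against dentate granule cells alone 8 receptors were higher in interneurons and 10 were lower, beside 31.2% and 32.6% of all genes.

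Genes that process and store the peptides also differed. Of 9 processing enzymes and helpers 6 were higher and 3 lower in interneurons than in the mean of the other cell types (median 1.04). Over all genes tested 35.1% were higher and 32.2% lower in this contrast, which also stands beside the counts of the next lists. Qpct, which forms the N-terminal pyroglutamate of some peptides, differed most (5.30, standard error 0.16; 70.3 TPM in interneurons against at most 4.13 in another mean), followed by the amidating enzyme Pam (2.55, standard error 0.05) and the convertase chaperone Scg5 (1.62). Of 9 dense-core vesicle genes 8 were higher and none lower (median 1.06), led by Vgf (2.86), Cadps (2.54) and Scg2 (2.23). Their summed TPM was nonetheless highest in cerebellar granule cells (3850, against 2759 in interneurons), and each of these cell types held the highest mean for 3 genes. With cerebellar granule cells left out the median of these 9 genes was 2.05. Astrocytes stood apart in having the highest mean of the carboxypeptidase gene Cpe (14320 ± 527 TPM; SD, n = 3) and of Scg3 (2002 ± 54.4), and their mean of the convertase gene Pcsk2 (37.9 ± 4.65) lay below that of every neuronal type; these genes were chosen after their values were seen. Among 10 extracellular peptidases and binding proteins 6 were higher and 3 lower in interneurons, led by Crhbp, which encodes the binding protein of corticotropin-releasing hormone, and by neprilysin, Mme. Crhbp was at 0 in cerebellar granule cells, and against the other 4 cell types it differed by 6.17 (standard error 0.12) and Mme by 3.72 (standard error 0.12). Crhbp was at 190 TPM in interneurons, above Crh itself on the same length-scaled unit, and at 3.71 TPM or less in every other mean.

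The 4 replicates with a library in both batches allowed a technical check of the levels. Over 26 values of at least 2 TPM outside cerebellar granule cells, the batch 2 value was between 0.785 and 1.165 times the batch 1 value, with a median of 0.983. With the batch 2 libraries in place of the batch 1 libraries, 8 of 10 genes again had their highest mean in interneurons.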

How the data were processed

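RiboTag mRNA libraries from 6 cell types, 3 replicates each, were compared. Per the labels and the study's methods, the authors trimmed reads with cutadapt 3.5 and pseudoaligned them to the GENCODE M24 mouse transcriptome (GRCm38) with kallisto 0.46.2; the strand setting is not given in the sources used here. The deposited files hold estimated counts and TPM for 142552 transcripts per library, and both were deposited by the authors without pooling of libraries. The gene symbol was read from the transcript identifier and values were summed over each gene's transcripts. Where a replicate had been sequenced in both batches, the batch 1 library was used.

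Summed estimated counts, rounded to whole numbers, were tested with edgeR 4.0.16 (R 4.3.3; TMM, filterByExpr with a minimum count of 10, quasi-likelihood F test) in 1 fit of 18 libraries. Of 55385 genes 20524 were tested, all 10 precursors among them, and p-values were adjusted by Benjamini-Hochberg over all of these; calls used an adjusted p of 0.05 and, where stated, a change of 8-fold. Fold changes are on the scale of counts, not TPM. Standard errors of edgeR fold changes were derived from the test, as the absolute log2 fold change divided by the square root of the F statistic. On simulated counts of the contrast of interneurons against the other cell types, 84 of 100 genes changed 2-fold and 99 of 100 changed 8-fold were recovered, with 2 unchanged genes called. In this simulation all other genes had the same mean in every cell type, whereas most genes differ between the cell types of these data. It therefore does not show how the test behaves under such broad differences. Limma 3.58.1 on log2(TPM + 1) and log2(TPM + 0.1), DESeq2 1.42.0, other normalizations and filters, other choices of batch and leaving out each replicate were tried as alternatives. All 10 precursors were named, and for each gene list the 3 called genes with the largest fold change. The precursors and the lists were chosen with earlier results of these data known. Sequences are from RefSeq; amino acid sequences were not used here. Intervals and floors cover counting error only. Values of 1 gene among the GABAergic markers are not reported here.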

Additional observations from a re-analysis of the deposited data

How the results depend on the processing

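The contrast of neurons against glia depended most on the processing. Its count of higher precursors, 1 of 10 as reported, was 4 with limma on log2(TPM + 1), 2 with limma on log2(TPM + 0.1), 2 with the batch 2 libraries in place of batch 1, 2 with all 22 libraries and batch as covariate, 2 within batch 2 and 5 with cerebellar granule cells left out. The last of these was added once the data had been seen. The count of lower precursors, 6 as reported, was 2 with cerebellar granule cells left out. Leaving out each replicate in turn gave 1 to 2 higher and 6 to 7 lower, the 2 arising without cerebellar granule cell replicate 2 and without microglia replicate 1. In this contrast Sst turned to 0.47 and Pdyn to 0.83 with limma on log2(TPM + 1), and without cerebellar granule cells Sst was 2.39, Npy 1.13, Penk 0.22 and Pdyn 1.86. The causes were not tested, other than that leaving out a cell type changes the mean it enters. The counts of the other 3 contrasts stayed within 1.5 times of those reported under the alternatives run, and the neighbouring pairs that passed numbered 34 to 42 over the alternatives and 39 to 42 without single replicates.

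Replicate numbers did not pair the samples: deviations from the group means correlated between samples of the same number with r from -0.1 to 0.109 (45 pairs) and of different number from -0.116 to 0.132. With the replicate number as a block the counts were 10 and 0, 9 and 1, 1 and 8, and 1 and 6, and 42 neighbouring pairs passed, as without it.

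Low counts of these genes limit the cerebellar granule cells, where 78 to 95 counts covered all 10 genes in a library. Total estimated counts of these libraries (66185898, 48481047 and 54194936) lay within the range of the other libraries.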

Other observations

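Other neuropeptide precursors had their own leading cell types. Of 36 further precursors 20 passed the count filter, of which 12 were higher and 4 lower in interneurons than in the mean of the other 5 cell types (35.1% and 32.2% of all genes). Pnoc, the nociceptin precursor, was at 130.6 ± 4.90 TPM in interneurons (SD, n = 3) and at most 2.26 in another mean, and differed by 6.43 from the other 4 cell types without cerebellar granule cells (standard error 0.09). Calca, which encodes calcitonin and CGRP, was at 19.75 ± 0.627 TPM in interneurons and below 1 TPM elsewhere, and its paralog Calcb was at 3.52 ± 0.468 and at 0 in dentate and cerebellar granule cells.

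The following genes were chosen after their values were seen. Layer V neurons held the highest means of Adcyap1, the PACAP precursor (64.9 ± 2.92 TPM), and Trh (46.7 ± 5.17). Dentate granule cells held that of Grp, the gastrin-releasing peptide gene (52.4 ± 3.41 TPM, against 20.7 ± 2.66 in layer V neurons). Astrocytes held that of Apln, the apelin gene (123.9 ± 6.97 TPM, at most 2.17 elsewhere).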
